A study of Mus musculus with 6 samples.

Results

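The genes described are 6 transcriptional regulators, namely the RUNX factors Runx1, Runx2 and Runx3, their partner Cbfb, the GATA-type repressor Trps1 and the CP2-family factor Tfcp2l1. They were read by every probe that the array annotation names for these 6 genes, older symbols included. That gave 10 probes for 5 genes, out of 45281 probes and 19057 named genes on the array, and no probe was found for Runx2, which was not analysed here. The samples were fornical conjunctival epithelium from mouse embryos at E14.5, the epithelial fold at the edge of the eye surface where the lacrimal bud forms. In the KO group (3 embryos) both Fgfr2 alleles were floxed and Le-Cre was present, written by the labels as Fgfr2 fx/fx with Le-Cre and also as Fgfr2-/-, and the WT group (3 embryos) was labelled wild type. Both groups were on a mixed FVB and 129 background, and each embryo gave 1 array. Le-Cre is a Cre transgene driven by a Pax6 regulatory sequence in the ocular surface ectoderm. It was present in the KO embryos only, so its own effect and the loss of Fgfr2 cannot be told apart.

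RUNX factors bind DNA through the Runt domain and gain affinity by pairing with CBFB, which does not bind DNA itself. They activate or repress their targets, the latter with Groucho (TLE) co-repressors, and are known for blood formation (Runx1), bone formation (Runx2) and sensory neurons and T cells (Runx3). All 3 have also been described in the epithelium of the mouse lacrimal gland. Trps1 is a repressor with a single GATA-type zinc finger, known for cartilage, hair follicle and other epithelial organs, and Tfcp2l1 is known for kidney collecting duct and salivary duct cells and for pluripotent stem cells. Fgfr2, a receptor for fibroblast growth factors, is needed in this epithelium for the lacrimal bud. The comparison of KO with WT asks which of these regulators differed in the epithelium without Fgfr2.

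The sequences upstream of the starts were searched for the motif that RUNX factors bind, and the RUNX gene windows named below are shown. The RefSeq promoter table (build GRCm38.p6) held 7 windows for 5 of the 6 genes, and Trps1 was not among them. The motif searched was TGTGGT or TGCGGT on either strand (ACCACA or ACCGCA when read in reverse), and matches are in capitals in the 250 bases before each start, written 5′ to 3′ along the gene's strand. The windows are the distal Runx3 start (chr4:135120395-135120644, + strand), the Runx2 start (chr17:44814628-44814877, - strand), and the distal (chr16:92826075-92826324, - strand) and proximal (chr16:92697330-92697579, - strand) Runx1 starts.
Runx3 distal: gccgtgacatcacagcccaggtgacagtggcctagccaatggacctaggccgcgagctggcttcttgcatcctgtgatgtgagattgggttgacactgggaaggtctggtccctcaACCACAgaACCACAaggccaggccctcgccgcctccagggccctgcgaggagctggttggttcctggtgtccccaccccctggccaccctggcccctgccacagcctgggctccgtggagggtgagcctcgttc
Runx2: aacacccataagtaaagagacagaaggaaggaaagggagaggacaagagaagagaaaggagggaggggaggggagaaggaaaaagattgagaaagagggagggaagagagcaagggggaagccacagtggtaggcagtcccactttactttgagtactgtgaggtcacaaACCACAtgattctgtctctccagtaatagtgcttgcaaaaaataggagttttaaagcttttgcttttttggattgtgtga
Runx1 distal: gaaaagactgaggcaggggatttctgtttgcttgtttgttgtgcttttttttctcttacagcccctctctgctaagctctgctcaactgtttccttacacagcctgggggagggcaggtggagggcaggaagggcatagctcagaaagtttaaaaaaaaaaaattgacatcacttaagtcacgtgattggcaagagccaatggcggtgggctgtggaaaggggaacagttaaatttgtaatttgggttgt
Runx1 proximal: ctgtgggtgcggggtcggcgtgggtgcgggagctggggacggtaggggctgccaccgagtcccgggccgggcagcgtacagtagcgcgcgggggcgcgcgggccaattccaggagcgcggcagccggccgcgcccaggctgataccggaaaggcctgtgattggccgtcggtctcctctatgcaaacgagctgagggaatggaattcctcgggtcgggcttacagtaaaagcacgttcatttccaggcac
Runx3 held 2 matches that begin 134 and 126 bases before its distal start, and Runx2 held 1 that begins 80 bases before its start. These letters were not in the Runx1 windows, the second Runx3 window, or those of Cbfb and Tfcp2l1, and 18.6% of all 32851 windows of this length held at least 1 match. Neither gene whose window held the motif gave a measured level here, as Runx2 had no probe and Runx3 was not detected.

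On the KO arrays 34.6% ± 0.32 of all probes were detected (SD, n = 3) and on the WT arrays 49.5% ± 1.04 (SD, n = 3), where detected means a detection p below 0.05 against the array's negative controls. Median raw signal was 101 to 106 in KO and 117 to 126 in WT. The median gene had an SD of 0.80 between KO embryos and 0.30 between WT embryos on the log2 scale. Over all items KO arrays correlated less with each other (0.70 to 0.71) than with WT arrays (0.75 to 0.77), while WT arrays correlated at 0.94 to 0.96 with each other. Taken over all items, the KO arrays thus stood apart from one another, though not for every probe described below. Nothing in the labels says whether embryos shared a litter. Of the 4 probes of Fgfr2, the deleted gene, none differed at an adjusted p of 0.05 in limma. The brightest read 12.16, 11.97 and 12.15 in WT and 12.11, 12.34 and 12.30 in KO, a further probe was undetected on all KO arrays, and the other two had log2 fold changes (KO minus WT) of 0.86 and 0.68. The files do not say whether any of these probes lies in the deleted part, so the array does not check the genotype labels. The 14 surface epithelium markers were all on the array and all detected on at least 1 array. In this tissue sample, fewer cells of a type and less RNA per cell cannot be told apart.

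Of the 6 genes, 4 could be tested (Runx1, Cbfb, Trps1 and Tfcp2l1), and none passed an adjusted p of 0.05 in limma. Over all 13916 items tested, 2.41% passed, and 1.59% were lower in KO. Each gene was read by its brightest probe, with Benjamini-Hochberg adjustment over all items. At an unadjusted p below 0.05 there was 1 of the 4 genes, Trps1, against 19.4% of all items. Fitted probe by probe, 0 of 9 tested probes passed, against 2.06% of all 20853 probes (1.43% lower in KO), and 3 had an unadjusted p below 0.05, against 18.5%. Those 3 were 1 probe each of Runx1, Cbfb and Trps1, with log2 fold changes below 0. The Runx1 and Cbfb probes among them (ILMN_2619773 and ILMN_2671644) were undetected on all 3 KO arrays, so their differences are against background. Of the 4 genes, 3 had a log2 fold change (KO minus WT) below 0, where 54.3% of all items did. Their median was -0.26, beside -0.09 over all items.

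Fewer of the 10 probes were detected on each KO array than on each WT array. On each WT array 9 of the 10 probes were detected, covering 4 genes. On KO arrays A, B and C the counts were 5, 5 and 6 probes, covering 2, 3 and 3 genes. Over all probes, 49.5% were detected in WT and 34.6% in KO. The lowest detected signal was 4.62 to 4.67 on WT arrays and 5.36 to 5.41 on KO arrays. Tfcp2l1 thus counted as undetected at 5.18 in KO B and as detected at 4.71 in WT A. Of the 9 probes detected on all 3 WT arrays, 2 were undetected on all 3 KO arrays, against 10.9% of such probes over the whole array. The 2 were the second probe of Runx1 and probe ILMN_2671644 of Cbfb.

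**Figure D1:**
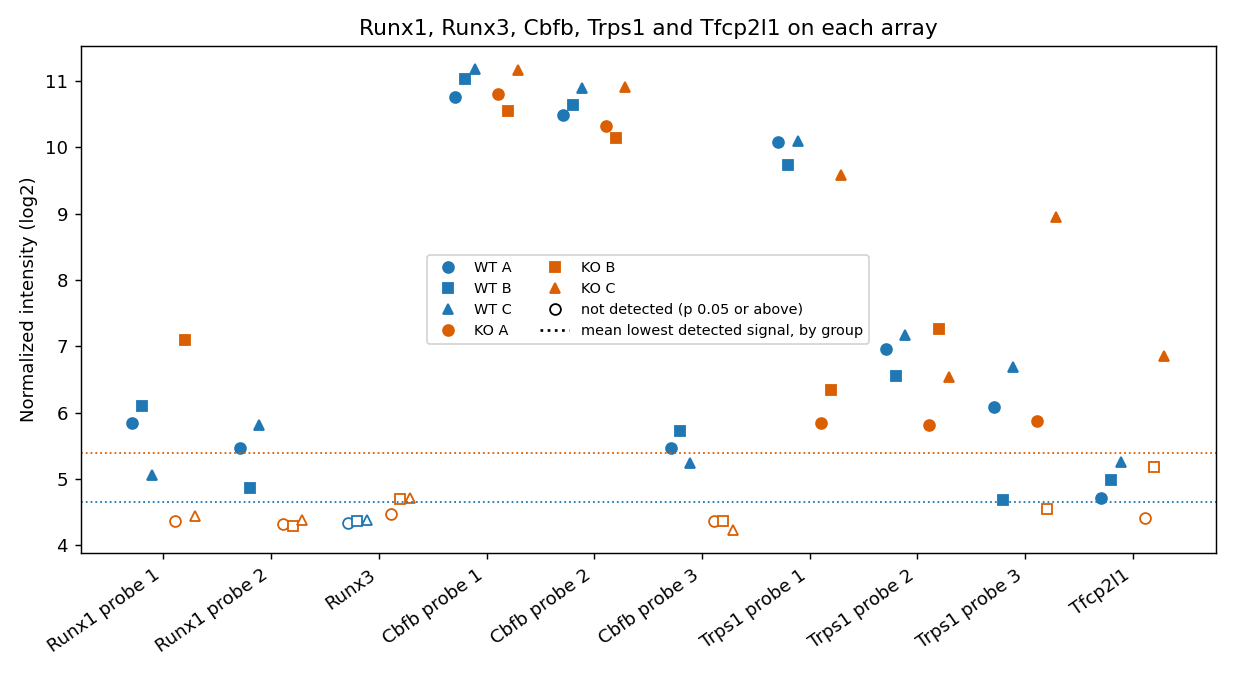
Normalized log2 intensity of the 10 probes (x axis, by gene and in order of mean level) on each of 6 arrays, WT in blue and KO in orange, with open symbols where the probe was not detected; dotted lines give the mean lowest detected signal of each group. The first Trps1 probe lay between 9.74 and 10.09 in WT and at 5.84, 6.34 and 9.58 in KO, while the bright Cbfb probes overlapped between the groups.

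Runx1, the RUNX factor of blood stem cells that is also made in embryonic epithelia and mesenchyme, was dim in this tissue and its level depended on the probe. The first probe (ILMN_2589107, annotated to the RefSeq transcript) read 5.84, 6.11 and 5.06 in WT embryos A, B and C and 4.36, 7.09 and 4.44 in KO embryos A, B and C (normalized log2 intensity). KO embryo B was thus above every WT embryo, and the other KO embryos were below every WT embryo and not detected, so the groups overlapped. The log2 fold change was -0.37 with SE 0.81 and a 95% interval of -2.34 to 1.60 (adjusted p = 0.85 in limma). Before normalization this probe read 178, 186 and 143 in WT and 97.4, 187 and 97.8 in KO, with a bead standard error of 7.52 at the KO B value from 35 beads. The bead numbers of this probe on the other arrays were 25 to 41. Its sign turned to 0.34 with cyclic loess scaling, to 0.094 without KO replicate A and to 0.056 without KO replicate C.

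The second Runx1 probe (ILMN_2619773, annotated to an older cDNA record) did not show a high KO B value. It read 5.46, 4.86 and 5.82 in WT and 4.32, 4.29 and 4.39 in KO, and was undetected on all 3 KO arrays. The groups did not overlap, and 17.4% of all probes tested were lower in KO with no overlap. The limma adjusted p was 0.19 over all probes. KO has only a bound here, set by the lowest detected signals on its arrays (5.36 to 5.41), and the WT mean of 5.38 was not above their mean, so no fold is given for this probe. KO embryo B was therefore high by the first probe and at background by the second, and the array alone does not show which of the readings follows the transcript.

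Runx3 had a single probe (ILMN_2747141), which was undetected on all 6 arrays. It read 4.34, 4.36 and 4.37 in WT and 4.47, 4.70 and 4.72 in KO, under the lowest detected signals of 4.62 to 4.67 in WT and 5.36 to 5.41 in KO. No difference is given, since both groups were below background.

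**Figure D2:**
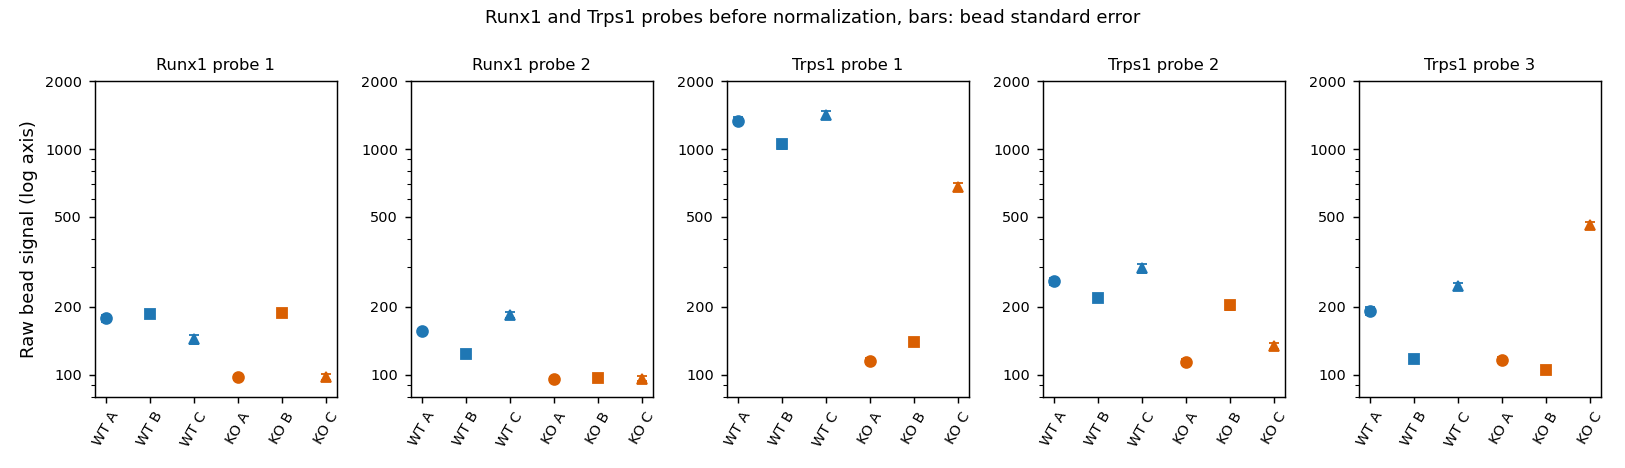
Raw bead signal (log axis) of the 2 Runx1 and 3 Trps1 probes on each array before background correction and scaling, with bars for the bead standard error of each value. The first Trps1 probe read 1048 to 1412 in WT and 115, 140 and 681 in KO A, B and C, and the third Trps1 probe was brightest in KO C at 459.

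Cbfb, the partner that stabilizes RUNX factors on DNA, varied least between KO embryos among the genes tested. Its first probe (ILMN_2837855) read 10.77, 11.03 and 11.18 in WT and 10.81, 10.55 and 11.16 in KO. The groups overlapped, with KO embryo C level with the highest WT embryo. Before normalization this probe read 2075 to 2858 in WT and 1468 to 1921 in KO, so the overlap holds only after background correction and scaling. The log2 fold change was -0.15 with SE 0.31 and a 95% interval of -0.90 to 0.59 (limma adjusted p = 0.83), so a fall of up to 0.90 on the log2 scale cannot be told from none. The sign of this probe held in every alternative run on it, with values from -0.56 to -0.0069.

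The second Cbfb probe (ILMN_2757743) gave a like picture, with 10.50, 10.64 and 10.89 in WT and 10.32, 10.14 and 10.92 in KO. Before normalization it read 1737 to 2358 in WT and 1117 to 1633 in KO. Its log2 fold change was -0.21 (SE 0.34, limma adjusted p = 0.79). On every array these bright probes stood above at least 96.6% of all probes.

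The dimmest Cbfb probe (ILMN_2671644) differed more. It read 5.47, 5.73 and 5.25 in WT and 4.37, 4.37 and 4.23 in KO, where no array detected it. The groups did not overlap. Measured against the lowest detected KO signals, the WT level was at least 1.07-fold higher (limma adjusted p = 0.12 over all probes). All 3 Cbfb probes are annotated to the same RefSeq transcript, and the files do not say where on it each lies. This probe passed with median scaling, no scaling between arrays, no filter, no moderation of variances and the authors' processed values (adjusted p = 0.041, 0.019, 0.037, 0.048 and 0.0048). In the authors' values its KO readings were all below 1 and were set to 1 before log2, which left them without spread.

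Trps1, the GATA-type repressor, had the largest difference of the genes tested, and its 3 probes disagreed in sign. The first probe (ILMN_1226073, annotated to a cDNA clone) read 10.08, 9.74 and 10.09 in WT and 5.84, 6.34 and 9.58 in KO. KO embryos A and B were far below the WT embryos, while KO embryo C was just below the lowest of them. The groups did not overlap, and 17.2% of all items tested were lower in KO with no overlap. The log2 fold change was -2.72 (6.57-fold lower) with SE 0.99 and a 95% interval of -5.12 to -0.31, and the adjusted p was 0.21 in limma. The SD between embryos was 2.03 in KO and 0.20 in WT. In rank on its array the probe stood above 95.2% to 96.4% of all probes in WT and above 70.8%, 75.2% and 94.7% in KO A, B and C. Without KO replicate C the log2 fold change was -3.88 and passed (limma adjusted p = 0.016); leaving out any other embryo did not make it pass.

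The second Trps1 probe (ILMN_2466527, annotated to the RefSeq transcript) was dimmer and overlapped between the groups. It read 6.96, 6.56 and 7.17 in WT and 5.81, 7.26 and 6.53 in KO, with KO embryo B above every WT embryo. Before normalization KO embryo B read 203 and the WT embryos 218 to 296, so this order holds only after scaling between arrays. Its log2 fold change was -0.36 (SE 0.45, limma adjusted p = 0.73). The third probe (ILMN_1230460, annotated to another cDNA clone) read 6.09, 4.68 and 6.69 in WT and 5.88, 4.55 and 8.95 in KO. KO embryo C was the brightest of all 6, and KO embryo B was not detected. Its log2 fold change was 0.64 (SE 1.17, limma adjusted p = 0.82). KO embryo B was thus low by ILMN_1226073 and ILMN_1230460 and high by ILMN_2466527, and KO embryo C was near or above WT by ILMN_1226073 and ILMN_1230460. A call on Trps1 as a gene therefore rests on which probe is read.

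**Figure D3:**
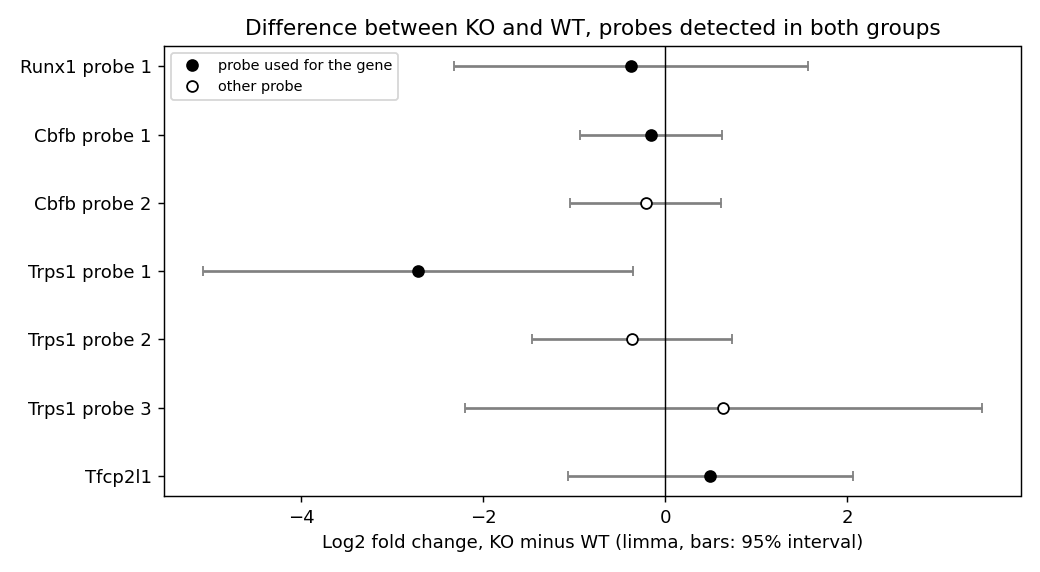
Log2 fold change, KO minus WT, of the 7 tested probes detected on at least 1 array of each group, with 95% intervals from limma fitted over 20853 probes; filled points mark the probe that stood for the gene. The interval of the first Trps1 probe lies below 0 before adjustment and those of the other 6 span 0, and the 2 probes undetected on all KO arrays are not drawn.

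Tfcp2l1, a CP2-family factor of duct cells, was read by a single probe (ILMN_2769832) near the detection limit. It read 4.71, 4.98 and 5.25 in WT, all detected, and 4.41, 5.18 and 6.85 in KO, where only embryo C was detected. After scaling KO embryo C was above every WT embryo, but before it the raw signal was 151 in KO C and 153 in WT C, so this order holds only after background correction and scaling. The groups overlapped. The log2 fold change was 0.50 with SE 0.65 and a 95% interval of -1.08 to 2.08 (limma adjusted p = 0.73). The sign turned to -0.26 with no scaling between arrays, to -0.39 with the authors' processed values and to -0.19 without KO replicate C.

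The spread between KO embryos was larger than between WT embryos for all 4 tested genes and for 7 of the 9 tested probes. It was 1.55 against 0.54 for Runx1, 0.31 against 0.21 for Cbfb, 2.03 against 0.20 for Trps1 and 1.25 against 0.27 for Tfcp2l1 (SD on the log2 scale, n = 3 each). The KO embryo that stood apart was not the same for each gene: it was B for the first Runx1 probe and C for the first Trps1 probe and for Tfcp2l1. Over all items the median SD was likewise larger in KO, and the part of lower detection in these spreads was not tested.

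The genes closest in profile were found by the root mean square difference of values centred on each gene's mean over the 6 arrays. For Trps1 they were Ildr1 (0.23), Taf6 (0.31) and Cnot3 (0.33 on the log2 scale). Ildr1, a tricellular junction protein, read 8.70, 8.27 and 8.69 in WT and 4.35, 4.29 and 8.15 in KO A, B and C, and so was also near WT in embryo C alone. For Runx1 they were Adam9, Raph1 and Tet3 (0.16, 0.17 and 0.18), each with its highest value in KO embryo B. For Cbfb they were Slc6a15, Septin7 and Dok3 (0.059, 0.093 and 0.10), and for Tfcp2l1 Chd1, Gsto1 and Rgl2 (0.086, 0.12 and 0.16). With 6 arrays and 13916 items, a close match is a description of these arrays.

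Genes that work with the RUNX factors were mostly measured, and none passed. Of 25 listed partners (TLE co-repressors, histone-modifying enzymes, SMAD factors, YAP and TAZ) 21 were on the array and 20 were tested, with 0 called in limma and 2 at an unadjusted p below 0.05. Their median log2 fold change was 0.17, beside -0.09 over all items. Those with the smallest p were Wwtr1 (TAZ, 1.58, adjusted p = 0.086), Runx1t1 (ETO, a co-repressor, 3.02, adjusted p = 0.14), Tle4 (-0.84, adjusted p = 0.29) and Smad5 (-1.26, adjusted p = 0.32). Runx1t1 read 4.77, 4.79 and 5.27 in WT and 7.12, 6.78 and 10.00 in KO, so its groups did not overlap, with KO embryo C far above the rest. Of 18 listed RUNX targets 17 were on the array and 6 were tested, with 0 called and a median of 0.44. Only Cd4 had an unadjusted p below 0.05 (0.72, limma adjusted p = 0.25). It was near the detection limit, at 4.80, 5.02 and 4.90 in WT and 5.87, 5.70 and 5.30 in KO, and was detected on 2 KO arrays. The tested targets Alpl and Itga4 were undetected on all KO arrays, so their differences are against background. The bone targets Sp7, Ibsp and Col10a1 and the blood targets Spi1, Gzmb, Il2 and Mpo were undetected on every array.

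No listed gene related to Trps1 or Tfcp2l1 passed in the fit reported, and some passed in alternatives. Of the 4 tested genes of the GATA list, 0 were called and 2 had an unadjusted p below 0.05. They were Gata3, a GATA factor of epithelia that was undetected on all KO arrays and at least 1.88-fold higher in WT (adjusted p = 0.11), and Zfpm2, a GATA cofactor, with 2.13 (adjusted p = 0.22). Of 5 tested Trps1 partners and targets, 0 were called and 0 had an unadjusted p below 0.05, with Gli3 at -1.30 (adjusted p = 0.39), Sox9 at -0.92 (adjusted p = 0.42) and Stat3 at 0.95 (adjusted p = 0.34). Among 5 tested CP2-family genes, 0 were called and 0 had an unadjusted p below 0.05, and the other close relatives Tfcp2 and Ubp1 stood at 0.21 and -0.07. Grhl3 and Grhl1 had opposite signs, at 1.11 and -1.13 (adjusted p = 0.31 and 0.33). Of 7 tested duct genes, 0 were called and 3 had an unadjusted p below 0.05, namely Krt7, Elf5 and Kit. Krt7 stood at 1.76 (limma adjusted p = 0.064) and Elf5 at -2.54 (adjusted p = 0.17). The tested Kit probe was undetected on all KO arrays, while another Kit probe was detected in KO (adjusted p = 0.18, no fold given). Krt7 passed in 8 of 21 alternatives, Elf5 and Gata3 in 2 each, and Zfpm2, Grhl1 and the duct gene Ehf in 1 each. The medians were -0.58, 0.0069, -0.07 and -0.38 for the GATA, Trps1, CP2 and duct lists.

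Among other lacrimal regulators some were called. Of 21 tested, 3 fell (Six2, Sox10 and Barx2), 1 rose (Alx4) and 17 did not pass, with a median log2 fold change of -0.92 (-0.90 with genes undetected in KO at their bound). That is 4 of 21, where 2.41% of all items were called. Alx4, a mesenchymal homeobox factor, read 7.91, 6.89 and 7.51 in WT and 9.90, 9.86 and 10.14 in KO, a rise of 2.53 (SE 0.35, limma adjusted p = 0.030). Alx4 did not pass with the mean over its probes, the probe of highest variance, array weights, a replicate block or any WT embryo left out. Whether the 4 genes described above differ from this list was not tested. The list's count was 1 on leaving out WT embryo A, 2 on leaving out WT embryo B and 2 on leaving out WT embryo C. Six2 and Sox10, which were undetected in KO, were at least 24.5-fold and 10.3-fold higher in WT (limma adjusted p = 0.0020 and 0.0041), and Barx2 fell by 2.08 on the log2 scale (adjusted p = 0.024). Of those that did not pass, Eya1, Etv5, Foxc1 and Ugdh had the smallest p. Eya1 was undetected on all KO arrays and at least 1.14-fold higher in WT (limma adjusted p = 0.072). Etv5 stood at -4.39, Foxc1 at -3.40 and Ugdh at 0.74 (limma adjusted p = 0.12, 0.13 and 0.22). Etv5 was detected on 1 KO array and Foxc1 on 2. Eya1 passed in 5 of 21 alternatives, Etv5 and Foxc1 in 2 each.

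**Figure D4:**
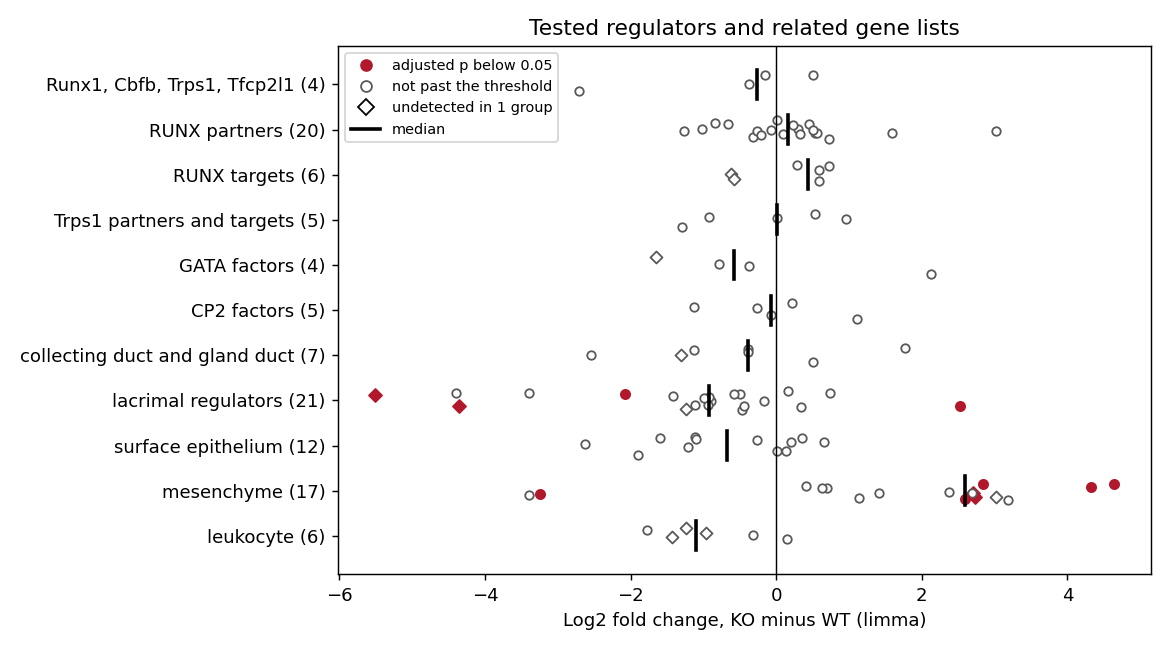
Log2 fold change, KO minus WT, of each tested gene of the regulators and of 10 related lists (y axis, number tested in brackets). Red symbols passed an adjusted p of 0.05, and the bar is the median. Diamonds are genes whose tested probe was undetected on all arrays of 1 group, so that its difference is against background. Other probes of Prrx1 and Ogn were detected in WT, and another probe of Kit in KO. The 4 regulators range from -2.72 to 0.50 with none called, and the mesenchyme list has its median at 2.60 with 6 genes called higher and 1 lower.

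RUNX factors and TRPS1 are also made by mesenchyme, cartilage and bone, and RUNX1 and RUNX3 by leukocytes, so those markers are given beside the values above. Of 17 tested mesenchyme markers, 6 rose (Col1a1, Col1a2, Col3a1, Prrx1, Ogn and Twist2) and 1 fell (Foxc2), and the list's mean log2 level was 7.58 to 8.53 on KO arrays and 6.25 to 6.50 on WT arrays. Of 6 tested leukocyte markers, 0 were called and 2 had an unadjusted p below 0.05 (Tyrobp and Mrc1), with a mean level of 4.60 to 5.45 in KO and 5.67 to 6.37 in WT. Tyrobp, Mrc1 and Cx3cr1 were undetected on all KO arrays, so these KO means include background readings. They were at least 1.32-, 1.25- and 1.06-fold higher in WT. The median log2 fold change of the leukocyte list was -1.10, and -0.32 with these genes at their bound. None of the 7 mesenchyme calls was made when any WT embryo was left out, where the count was 0 each time. The blood cell factor Spi1 was undetected on all arrays. Of 6 tested bone and cartilage markers 1 rose (Matn4, undetected in WT and at least 71.2-fold higher in KO). The list's mean level was 7.73 to 7.79 in KO and 6.96 to 7.13 in WT. Its median log2 fold change was -0.20, and -0.0066 with genes undetected in 1 group at their bound. Of these 6, 3 had a log2 fold change below 0, among them Col2a1 at -1.94 (limma adjusted p = 0.13). The bone-defining Sp7 and Ibsp were undetected throughout. Surface epithelium markers averaged 9.51 to 9.84 in KO and 10.33 to 10.45 in WT, with 0 of 12 called and 4 at an unadjusted p below 0.05. Of the remaining lists, 3 of 6 erythroid genes (Hba-a1, Hbb-y and Hbb-b2) and 1 of 7 lens genes (Cryab) rose. In the same fit 1 of 2 endothelial, 1 of 4 melanocyte and 1 of 1 nerve and glia genes fell, and 0 of 1 muscle genes passed. Over all items 0.826% rose and 1.59% fell. The melanocyte call was Sox10, already counted among the lacrimal regulators, while Dct, Tyr, Tyrp1, Pmel and Mlana were detected on too few arrays to be tested. All 4 tested melanocyte genes had log2 fold changes below 0, and 3 had an unadjusted p below 0.05 in limma (Sox10, Ednrb and Kit). Ednrb was undetected on all KO arrays and at least 1.19-fold higher in WT (limma adjusted p = 0.11). The nerve and glia call was Fabp7, undetected in KO and at least 2.22-fold higher in WT, with Tubb3, Elavl4 and Stmn2 undetected on every array. The endothelial call was Egfl7, whose tested probe was undetected in KO while another was detected there. The erythroid, lens, endothelial and nerve and glia calls were lost when any WT embryo was left out, and the melanocyte call when WT embryo A was. The part of these cells in the values of Runx1, Cbfb, Trps1 and Tfcp2l1 was not tested.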

How the data were processed

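Gene expression was measured on 6 Illumina BeadChip arrays of RNA amplified from laser-microdissected epithelium. The labels name the tissue as conjunctival, while their extraction text speaks of prospective lens, and the tissue labels were followed. The deposited scanner table gives, per the file headers, the average bead intensity on a linear scale (not scaled between arrays), its standard error, a detection p-value and how many beads were read. Per the submitters' processing notes the authors used GenomeStudio, with no version or settings given in the sources used here. The authors' processed intensity table, whose scale is linear and whose centring is unknown (medians 9.03 to 9.05, about 25.6% of probes below 0), was an alternative only. Its values below 1 were set to 1 before log2.

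Intensities were processed with neqc (offset 16, log2) in limma 3.58.1 under R 4.3.3. Probes detected at p below 0.05 on at least 3 of 6 arrays were kept (20853), and the brightest probe stood for each gene (13916 items, 10418 with a symbol). KO was set against WT with lmFit and eBayes, and genotype was the sole factor. The same fit over all kept probes gave the probe values. Fits were tested on simulated data in which both groups had the WT spread, so the larger KO spread was not covered. Promoter windows came from RefSeq. The genes described, all lists and the alternatives were chosen with earlier results of these data known. All probes of the 6 genes are named, and of each list those called and up to 4 more with the smallest p, fewer for the cell type lists; 3 nearest profiles are named for each gene. Same-lettered arrays did not deviate together (correlations -0.029 to -0.0043 over genes), so letters were not taken as pairs. Replicates are embryos, with 1 array each, and precision is limited by how few there are. Plots were made in matplotlib 3.10.9.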

Additional observations from a re-analysis of the deposited data

How the results depend on the processing

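The count of genes called among Runx1, Cbfb, Trps1 and Tfcp2l1 was 0 in every alternative except without KO replicate C, where Trps1 passed (leaving out each embryo in turn gave 0 to 1). The count of probes called was 0, but 1 with median scaling, 1 with no scaling between arrays, 1 with no filter, 1 with no moderation of variances (Cbfb probe ILMN_2671644 each time) and 2 with the authors' processed values (that probe and Runx1 probe ILMN_2619773), and 0 to 1 leaving out each embryo. In the authors' values, readings below 1 were set to 1 before log2. Both of these probes lay below 1 on every KO array, so their KO readings there were identical. The first Runx1 probe and the Tfcp2l1 probe lay below 1 in KO A. The cause of the changed counts was not tested. With a replicate block, 0 genes and 0 probes of these regulators passed, and 0 of all items. Trps1 moved from -2.72 to -0.81 with the mean over probes (adjusted p = 0.59 in limma), Runx1 from -0.37 to -2.88 with the authors' values, and Cbfb from -0.15 to -1.16 with the probe of highest variance, which is undetected in KO. Directions turned for Runx1 (0.34 with cyclic loess; -1.27 to 0.094 leaving out each embryo), Tfcp2l1 (-0.26 with no scaling, -0.39 with the authors' values; -0.19 to 1.03), Trps1 probe ILMN_2466527 (-0.73 to 0.00014) and Trps1 probe ILMN_1230460 (-0.18 with no scaling; -0.61 to 1.60). The median over all items, -0.09, was -0.49 with median scaling, -0.81 with no scaling, 0.088 with cyclic loess and -0.31 with the authors' values, so Tfcp2l1 with no scaling stood above that median. Over all items the 336 calls (221 lower) became 1068 (963 lower) with median scaling, 2068 (1981 lower) with no scaling, 245 (127 lower) with cyclic loess, 660 without a filter, 189 with detection p below 0.01 on all 6 arrays, 185 with array weights, 12 to 28 without a WT embryo and 540 to 563 without a KO embryo. Signals at background limit Runx1, Runx3, Tfcp2l1 and Cbfb probe ILMN_2671644. The count of RUNX partners called was 1 without KO replicate C and with the mean over probes, and 0 otherwise.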
